A study of Mus musculus with 6 samples.

Results

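The 10 genes described here mark the resident macrophages of bone marrow and carry out 3 of their tasks: tagging debris with complement, engulfing dying cells, and recovering iron from heme. They were chosen by symbol, and each of the 10 symbols matched 1 row among the 27761 genes of the deposited table. The table holds RNA levels of mouse bone marrow B220+ cells in 2 groups, 3 libraries labelled PELI2-CKO, whose genotype is given as PELI2 knockout, and 3 labelled WT. B220 is the form of CD45 found on B-lineage cells and on plasmacytoid dendritic cells. The labels give the genotype and the cell fraction and name no Cre driver, strain, age, sex or treatment, and nothing in them states whether replicates came from separate animals. P-values therefore measure only the spread between these samples.

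Resident macrophages of bone marrow sit at the centre of erythroblastic islands, where they swallow the nuclei that maturing red cells expel, clear apoptotic cells and return iron to the circulation. C1q, the recognition molecule of the classical complement pathway, binds immune complexes and dying cells and is made mainly by macrophages rather than by the liver. Mertk and Axl are receptor tyrosine kinases that recognise phosphatidylserine on dying cells through bridging proteins. Heme oxygenase, encoded by Hmox1, opens the heme ring, and ferroportin, encoded by Slc40a1, exports the iron that is set free. Macrophages are not B-lineage cells, and their RNA in a B220+ fraction can come from few cells. In bulk RNA, fewer cells of a type and less RNA per cell cannot be told apart.

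Levels are FPKM (reads scaled to transcript length and to the reads of the library, as the authors gave them) with mean ± SD over n = 3 libraries per group. Depth, worked out from the steps between low FPKM values, was 17000000 to 18100000 reads in the libraries labelled PELI2-CKO and 16600000 to 17800000 in WT. Differences between the groups are given on log2(FPKM + 1), where changes of genes with low FPKM come out too small. They come from limma fitted over the 12953 genes with at least 1 FPKM in at least 3 libraries, and an adjusted p under 0.05 counted as a difference. Peli2 itself, the ubiquitin ligase gene named in the labels, stood at 3.07, 2.70 and 2.47 FPKM in libraries labelled PELI2-CKO and at 2.03, 2.54 and 1.99 FPKM in WT (two-sided exact permutation test, p = 0.2, where 0.1 is the smallest p possible). It was therefore not lower under the knockout label, and directions given here follow the labels alone. One value per gene cannot show a deletion of a few exons.

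All 10 macrophage genes were detected and passed the filter, and for none was a difference between the groups called. Of the 10 members 0 had an adjusted p under 0.05 by limma, against 0.0232% of all genes tested, and 1 (Cd68) had an unadjusted p under 0.05, against 18.1%. Adjusted p ran from 0.235 for Cd68 to 0.962 for C1qa. The groups overlapped for each of the 10 members, where 25.8% of all genes tested had groups that did not overlap. Each member had a higher mean in the libraries labelled PELI2-CKO, with ratios of the means between 1.04 and 1.31 and a median log2 fold change of 0.10, against a median of -0.014 and a higher mean in 46.4% over all genes tested. This direction depended on single libraries: the median was -0.14 without PELI2-CKO replicate 3 and -0.12 without WT replicate 1, and in each case 2 of 10 members stayed higher.

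The 10 genes varied widely, and together, between replicates of 1 group. Each of the 10 members was highest in replicate 3 of the libraries labelled PELI2-CKO, as were 33.6% of all genes tested, and each was also highest in replicate 3 of WT. The 2 together held for 14.2% of all genes tested. Each of the 10 was lowest in replicate 1 within WT, as were 37.7% of all genes tested. Among 9 members, Cd68 aside, the level in replicate 3 was 1.62 to 2.36 times the mean of replicates 1 and 2 in the libraries labelled PELI2-CKO, and 1.49 to 2.76 times replicate 1 in WT. The SD between replicates had a median of 0.46 (log2) over the members, against 0.098 over all genes tested, and 9 of the 10 lay at or above the 90th percentile of that spread. The labels do not say that replicate 3 of the groups shared an animal, a day or a sort.

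**Figure D1:**
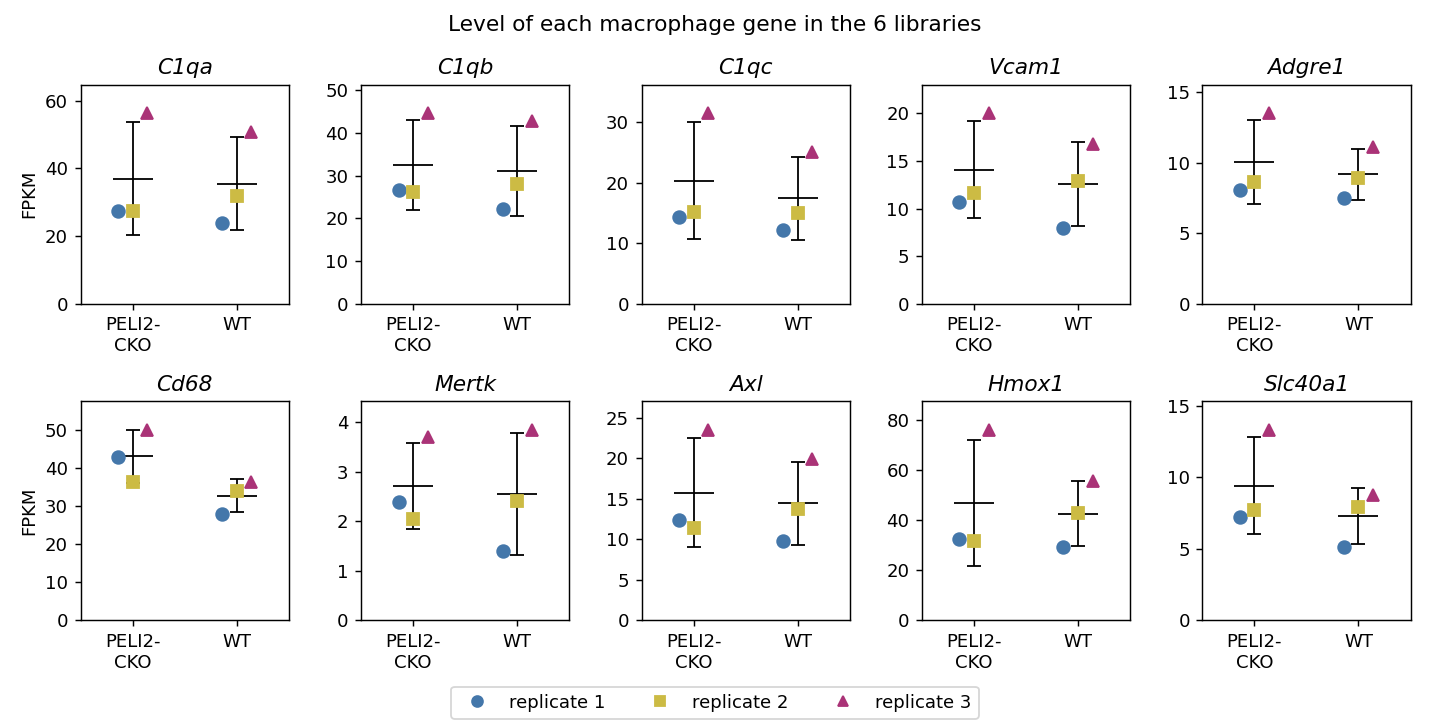
FPKM of the 10 macrophage genes in each library, with the libraries labelled PELI2-CKO on the left and WT on the right of each panel, colours and shapes marking replicates, the long dash the mean and the bars the SD (n = 3). Replicate 3 is the highest point of both groups in all 10 panels, and the groups overlap in each.

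C1qa, C1qb and C1qc encode the 3 chains of C1q, and lie side by side on the minus strand of chromosome 4 within 18.7 kb (GRCm38, C1qb at chr4:136880129-136886187, C1qc at chr4:136889804-136893065 and C1qa at chr4:136895917-136898803). C1qa stood at 27.3, 27.4 and 56.2 FPKM in libraries labelled PELI2-CKO and at 23.9, 31.9 and 50.6 FPKM in WT. C1qb stood at 26.7, 26.1 and 44.6 FPKM in libraries labelled PELI2-CKO and at 22.3, 28.1 and 42.9 FPKM in WT. C1qc stood at 14.3, 15.1 and 31.4 FPKM in libraries labelled PELI2-CKO and at 12.1, 15 and 25.1 FPKM in WT. For all 3 chains the replicate 3 libraries stood well above the others, and the remaining 4 libraries lay together at the lower end. C1qa and C1qb have 1 annotated transcript each, so their values convert to reads, at about 485 to 1051 reads for C1qa in the libraries labelled PELI2-CKO and 443 to 904 in WT. For C1qb they were about 484 to 873 reads in the libraries labelled PELI2-CKO and 432 to 803 in WT.

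The proportions of the 3 chains varied less than their levels. C1qa was above C1qb, and C1qb above C1qc, in 6 of 6 libraries. The ratio of C1qa to C1qb was 1.11 ± 0.13 in the libraries labelled PELI2-CKO and 1.13 ± 0.053 in WT, and its highest value over the 6 libraries was 1.23 times its lowest. The ratio of C1qc to C1qb was 0.606 ± 0.088 in the libraries labelled PELI2-CKO and 0.553 ± 0.027 in WT, and its highest value was 1.32 times its lowest. Both ratios were highest in PELI2-CKO replicate 3, at 1.26 and 0.704. Log2 fold changes between the groups were 0.04 with a 95% interval of -0.81 to 0.89 for C1qa (limma adjusted p = 0.962), 0.07 with -0.61 to 0.75 for C1qb (adjusted p = 0.92) and 0.18 with -0.67 to 1.04 for C1qc (adjusted p = 0.816). On this scale the interval for C1qa runs from 0.57 to 1.85 times the WT level, so these 3 libraries per group do not exclude differences within that range.

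Because the C1q chains moved together, the promoters of the 2 chain genes that RefSeq's table holds (GRCm38.p6, 250 bases before to 50 after the start) are shown, 5′ to 3′ on the gene's strand, with motif matches in capitals. The windows are chr4:136886151-136886450 for C1qb and chr4:136892865-136893164 for C1qc.
C1qb: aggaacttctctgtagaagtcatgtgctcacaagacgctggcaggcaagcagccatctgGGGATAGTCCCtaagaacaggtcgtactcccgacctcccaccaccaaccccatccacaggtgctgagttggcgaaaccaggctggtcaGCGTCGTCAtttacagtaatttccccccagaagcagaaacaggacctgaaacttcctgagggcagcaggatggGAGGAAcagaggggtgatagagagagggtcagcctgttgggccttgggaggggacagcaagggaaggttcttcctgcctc
C1qc: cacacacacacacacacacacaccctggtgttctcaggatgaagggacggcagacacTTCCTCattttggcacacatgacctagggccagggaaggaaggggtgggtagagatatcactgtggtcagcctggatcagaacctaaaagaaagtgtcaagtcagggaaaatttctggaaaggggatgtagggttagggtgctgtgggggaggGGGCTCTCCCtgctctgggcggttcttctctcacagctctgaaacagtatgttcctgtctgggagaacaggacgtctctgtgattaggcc
Both hold the core motif of PU.1, the ETS factor of myeloid and B cells (GAGGAA on either strand), at -30 in C1qb and on the opposite strand at -193 in C1qc. Positions count RefSeq's first transcribed base as 1 and give each match's first base in the printed run. Both also hold an NF-kB match (GGGA and CC with 4 bases between them), on both strands in overlap at -191 and -190 in C1qb and on the opposite strand at -40 in C1qc. The C1qc gene of the deposited table begins further upstream than RefSeq's start, at chr4:136893065. The match at -40 therefore lies within that annotated gene, and the one at -193 before it. C1qb alone of the pair holds an antioxidant response element (TGACNNNGC), on the opposite strand at -103. Of 27025 mouse promoters of the same length, 28.3% hold the PU.1 core, 20.5% the NF-kB motif and 12.5% the antioxidant response element, so a match describes the letters and not a bound site.

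Vcam1 and Adgre1 are surface proteins by which bone marrow macrophages are recognised. Vcam1, the adhesion molecule that holds erythroblasts and B cell precursors through integrins and is also made by stromal cells, stood at 10.7, 11.6 and 20 FPKM in libraries labelled PELI2-CKO and at 7.95, 12.9 and 16.8 FPKM in WT. Adgre1, which encodes the macrophage antigen F4/80, stood at 8.1, 8.6 and 13.5 FPKM in libraries labelled PELI2-CKO and at 7.48, 8.95 and 11.1 FPKM in WT. Both followed the C1q chains from library to library, and the groups lay over each other. Their log2 fold changes were 0.16 with a 95% interval of -0.58 to 0.90 for Vcam1 (limma adjusted p = 0.811) and 0.10 with -0.39 to 0.60 for Adgre1 (adjusted p = 0.821). The ratio of Vcam1 to C1qb was 0.431 ± 0.027 in the libraries labelled PELI2-CKO and 0.402 ± 0.051 in WT.

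Mertk and Axl, the receptors of dying cells, moved with the same libraries, Axl at a much higher level. Axl stood at 12.4, 11.4 and 23.5 FPKM in libraries labelled PELI2-CKO and at 9.76, 13.7 and 19.9 FPKM in WT. Mertk, the member with the lowest level, stood at 2.39, 2.04 and 3.70 FPKM in libraries labelled PELI2-CKO and at 1.39, 2.40 and 3.84 FPKM in WT. Even the lowest Mertk value, in WT replicate 1, corresponds to about 68 to 107 reads, depending on which of its 2 annotated transcripts is assumed. The ratio of Axl to Mertk was 5.71 ± 0.60 in the libraries labelled PELI2-CKO and 5.96 ± 0.94 in WT. Log2 fold changes were 0.10 for both, with 95% intervals of -0.68 to 0.88 for Axl (limma adjusted p = 0.891) and -0.56 to 0.77 for Mertk (adjusted p = 0.871).

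Their close relative Tyro3 was nearly absent, at 0.116, 0.123 and 0.205 FPKM in libraries labelled PELI2-CKO and 0.0911, 0.136 and 0.122 FPKM in WT. Gas6, the bridging protein that Axl and Mertk bind, stood at 0.715, 0.483 and 1.3 FPKM in libraries labelled PELI2-CKO and 0.465, 0.779 and 1.09 FPKM in WT, and it too was highest in replicate 3 of each group. The rule for named genes does not cover Tyro3 and Gas6, which were picked with their values in view. Of 30 other efferocytosis genes 21 were tested, of which 0 passed (limma). At an unadjusted p under 0.05, 4 had higher means and 0 lower ones, and the median log2 fold change was -0.003. Over all genes tested, the shares at that unadjusted p were 9.2% with a higher and 8.88% with a lower mean. The 4 were Scarb1, a scavenger receptor, at 8.37, 8.29 and 7.86 FPKM in libraries labelled PELI2-CKO and 6.21, 6.08 and 6.90 FPKM in WT, the lipid-binding receptor Cd300lf, the bridging protein Pros1 and the transporter Abca7. Replicate 3 was highest in both groups for 7 of the 21.

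Hmox1 and Slc40a1 stand at the start and the end of iron recovery from heme. Hmox1, with the highest mean of the 10, stood at 32.6, 31.8 and 75.9 FPKM in libraries labelled PELI2-CKO and at 29.4, 42.6 and 55.6 FPKM in WT. Slc40a1 stood at 7.23, 7.68 and 13.3 FPKM in libraries labelled PELI2-CKO and at 5.10, 7.95 and 8.79 FPKM in WT. PELI2-CKO replicate 3 was the highest of all 6 libraries for both genes, and its Hmox1 level was 2.36 times the mean of the other 2 libraries with that label. The log2 fold change was 0.06 with a 95% interval of -0.84 to 0.96 for Hmox1 (limma adjusted p = 0.946) and 0.31 with -0.31 to 0.93 for Slc40a1 (adjusted p = 0.556). Without PELI2-CKO replicate 3, these were -0.34 for Hmox1 and 0.058 for Slc40a1.

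Other genes of heme and iron handling varied less between replicates than Hmox1 and Slc40a1, whose spread lay at percentiles 98.2 and 95.4 of all genes tested against a median percentile of 38.4 for the list. Of 26 such genes 22 were tested and 0 passed (limma). At an unadjusted p under 0.05, 6 had higher means and 0 lower ones, against 9.2% and 8.88% of all genes tested. The list's median log2 fold change was 0.15. Hp, the hemoglobin scavenger haptoglobin, stood at 137, 153 and 138 FPKM in libraries labelled PELI2-CKO and 69.7, 93.3 and 92.3 FPKM in WT, with groups apart (log2 fold change 0.75, limma adjusted p = 0.131). Blvrb, a biliverdin reductase, stood at 48.2, 57.5 and 53.5 FPKM in libraries labelled PELI2-CKO and 40.9, 43.0 and 44.0 FPKM in WT. Ftl1, a ferritin chain that stores iron, stood at 342, 375 and 359 FPKM in libraries labelled PELI2-CKO and 291, 331 and 317 FPKM in WT. In these 3 genes, and in the metal transporter gene Slc39a14, the groups lay apart and replicate 3 did not lead in the libraries labelled PELI2-CKO. Fth1, the partner chain of Ftl1 in ferritin, also had groups apart, at 1080, 1110 and 1170 FPKM in libraries labelled PELI2-CKO and 924, 991 and 1010 FPKM in WT, but was highest in replicate 3 of both. Ireb2 went the other way, with groups apart and a lower mean. It stood at 9.88, 10.5 and 9.99 FPKM in libraries labelled PELI2-CKO and 10.8, 10.7 and 10.8 FPKM in WT. In the whole list the groups were separate for 5 higher genes and 1 lower one, where all genes tested gave 11.5% and 14.3%. The rule for named genes covers neither Fth1 nor Ireb2, both picked with their values in view. Replicate 3 was highest in both groups for 6 of the 22, among them Cd163, the receptor for haptoglobin bound to hemoglobin, at 4.40, 4.59 and 7.66 FPKM in libraries labelled PELI2-CKO and 2.96, 4.77 and 4.88 FPKM in WT.

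Cd68 behaved differently from the other 9. This gene encodes macrosialin, a lysosomal membrane protein that monocytes, granulocytes and dendritic cells make as well as macrophages. It stood at 42.8, 36.2 and 49.9 FPKM in libraries labelled PELI2-CKO and at 27.9, 33.8 and 36.3 FPKM in WT. The lowest library labelled PELI2-CKO and the highest WT library were at nearly the same level, so the groups only just overlapped. The log2 fold change was 0.38 with a 95% interval of 0.05 to 0.71 and an unadjusted p of 0.0294, which did not pass over all genes (limma adjusted p = 0.235). An unadjusted p under 0.05 was reached by 18.1% of all genes tested. The estimate stayed between 0.27 and 0.50 whichever library was left out, but the unadjusted limma p did not stay under 0.05. It was 0.086, 0.051 and 0.025 without WT replicates 1, 2 and 3. Without PELI2-CKO replicates 1, 2 and 3 it was 0.068, 0.0093 and 0.083. Its SD between replicates was 0.21 (log2), at percentile 82.8 of all genes tested, where the other 9 lay between percentiles 92.2 and 98.2. The ratio of Cd68 to C1qb was 1.37 ± 0.24 in the libraries labelled PELI2-CKO and 1.10 ± 0.22 in WT, and varied 1.90-fold over the 6 libraries.

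The Cd68 promoter (chr11:69666121-69666420, GRCm38.p6, minus strand) is shown for comparison with those of the C1q chains, with motif matches in capitals.
Cd68: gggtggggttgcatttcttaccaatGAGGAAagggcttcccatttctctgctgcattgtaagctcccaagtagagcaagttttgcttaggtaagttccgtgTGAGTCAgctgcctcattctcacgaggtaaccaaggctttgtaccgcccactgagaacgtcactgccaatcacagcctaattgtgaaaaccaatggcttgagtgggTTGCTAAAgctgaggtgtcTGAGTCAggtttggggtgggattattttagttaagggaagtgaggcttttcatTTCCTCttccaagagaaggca
It holds the PU.1 core at -225 and, on the opposite strand, at 30, AP-1 matches (TGANTCA, in 7.93% of promoters) at -149 and -24 and a C/EBP match (TTGCNNAA, in 10.8%) at -43. The E-box CACGTG (in 7.24% of promoters) and the STAT motif TTCNNNGAA (in 8.47%) had no match in it or in the C1q windows. Of the members 5 were matched in RefSeq's table (C1qb, C1qc, Cd68, Mertk and Axl), and C1qa, Vcam1, Adgre1, Hmox1 and Slc40a1 were not.

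**Figure D2:**
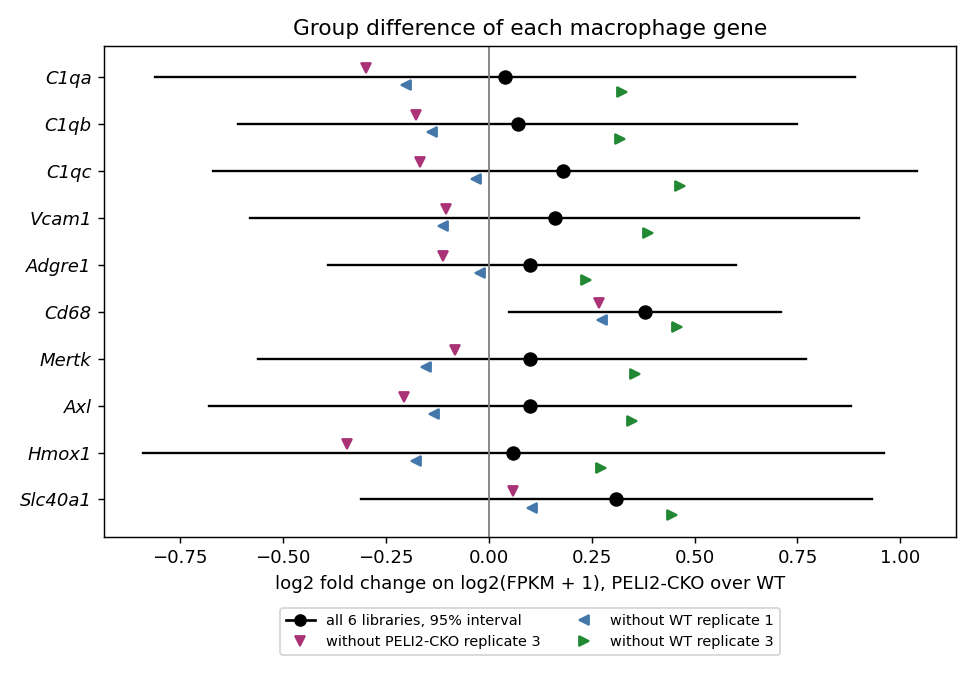
Log2 fold change of each macrophage gene on log2(FPKM + 1), libraries labelled PELI2-CKO over WT, with its 95% interval (black) and its value without PELI2-CKO replicate 3, without WT replicate 1 and without WT replicate 3. Intervals of 9 genes include 0 and for 8 of those genes the estimate changes sign when 1 of 2 libraries is left out. Over the values plotted, Cd68 stays between 0.269 and 0.458 and Slc40a1 between 0.058 and 0.445.

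Ordered by level, Hmox1, Cd68, C1qa and C1qb were followed by C1qc, Axl, Vcam1, Adgre1, Slc40a1 and Mertk. On the FPKM scale the group means ran from 46.8 ± 25.2 for Hmox1 to 2.71 ± 0.88 for Mertk in the libraries labelled PELI2-CKO, and from 42.5 ± 13.1 to 2.54 ± 1.23 in WT. From C1qa on, each gene stood above the next in 6 of 6 libraries, apart from Axl and Vcam1 at 5 of 6. At the top the order was not stable, since Hmox1 stood above Cd68 in 4 of 6 libraries and Cd68 above C1qa in 4 of 6. By level, Mertk lay at percentile 21.2 and Hmox1 at percentile 90.1 of all genes tested.

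**Figure D3:**
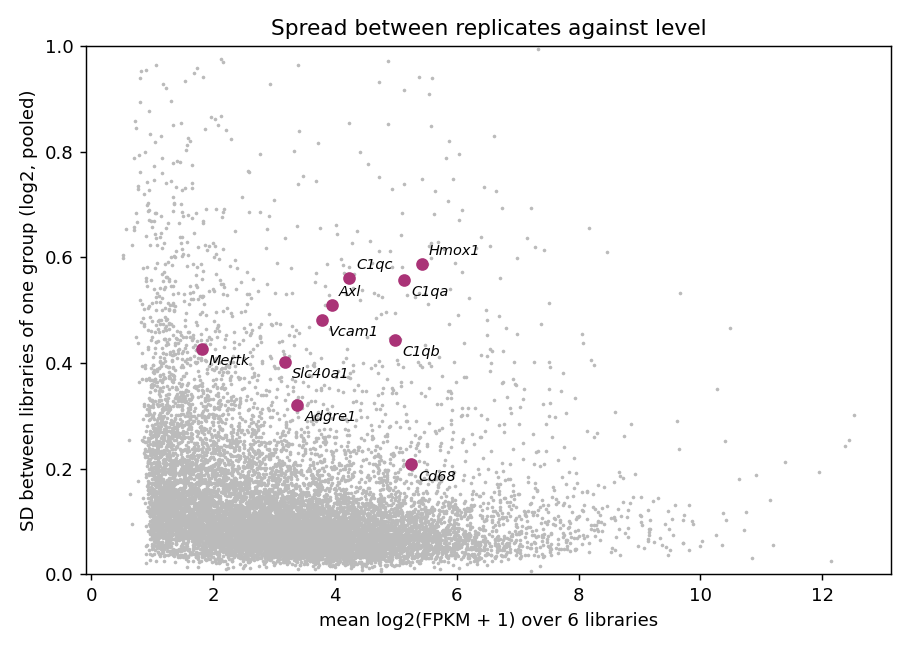
SD between libraries of 1 group (log2, pooled over the groups) against mean log2(FPKM + 1) for the 12953 genes tested (grey) and the 10 macrophage genes (purple). Hmox1 at 0.59, C1qc at 0.56 and C1qa at 0.56 lie far above the median of 0.098, and Cd68 at 0.21 is the lowest member, while 20 genes above an SD of 1 are off the axis.

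The label of the list was checked against other macrophage genes. Of 30 such genes 22 were tested, 8 lay under the filter and 0 were at 0 in all libraries. Siglec1, the sialoadhesin that marks macrophages of erythroblastic islands, stood at 2.84, 2.96 and 7.69 FPKM in libraries labelled PELI2-CKO and 2.95, 4.17 and 6.63 FPKM in WT. Spic, the transcription factor of iron-recycling macrophages, stood at 1.72, 1.89 and 3.11 FPKM in libraries labelled PELI2-CKO and 1.2, 1.61 and 2.76 FPKM in WT. The mannose receptor Mrc1 showed the same order, with replicate 3 highest in both groups. Of 2 markers of macrophages in other tissues, Vsig4 stayed at or under 0.261 FPKM in every library and Folr2 at or under 0.0716 FPKM. Both are among the 8 genes under the filter and were picked with their values in view. Other genes of the list stood higher, with Cd5l at 5.49 to 18.9 FPKM over the libraries and Timd4 at 0.567 to 1.76 FPKM. Replicate 3 was highest in both groups for 19 of the 22 tested, and WT replicate 1 was the lowest WT library for all 22.

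Between the groups, 0 of these 22 genes passed (limma). At an unadjusted p under 0.05, 6 had higher means and 1 (Maf) a lower one, against 9.2% and 8.88% of all genes tested. The list's median log2 fold change was 0.19. The 4 with the smallest p were Dnase2a, the nuclease that digests DNA of engulfed erythroid nuclei, the lysosomal protease Ctsb, the growth factor receptor Csf1r and the inhibitory receptor Sirpa. Csf1r, which monocytes also carry, stood at 15.8, 15.1 and 18.3 FPKM in libraries labelled PELI2-CKO and 8.33, 11.2 and 14 FPKM in WT (log2 fold change 0.54, limma adjusted p = 0.208). Dnase2a stood at 5.68, 5.09 and 5.32 FPKM in libraries labelled PELI2-CKO and 3.95, 4.45 and 4.49 FPKM in WT (log2 fold change 0.27, limma adjusted p = 0.168). The groups lay apart for Csf1r and Dnase2a, whereas they overlapped for Siglec1 and Spic. Among the 22, groups lay apart for 7 with a higher mean and for 0 with a lower one, against 11.5% and 14.3% of all genes tested.

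The genes whose levels were most like the members' mean were Slco2b1, Mrc1, Sdc3, Fcna and Hpgd, by Pearson's r of log2(FPKM + 1) over the 6 libraries. Their r was 0.996, 0.993, 0.993, 0.99 and 0.989, given as a description, since all genes of 1 library share its depth and cells. Of the 5, 3 (Slco2b1, Mrc1 and Fcna) are also in the list of other macrophage genes. Fcna, which encodes ficolin A of the lectin complement pathway, stood at 18.2, 19.2 and 40.7 FPKM in libraries labelled PELI2-CKO and 15, 23.8 and 33.2 FPKM in WT. Hpgd, which breaks down prostaglandins, stood at 2.79, 2.93 and 5.49 FPKM in libraries labelled PELI2-CKO and 1.78, 2.93 and 4.58 FPKM in WT. Against the mean of the other members, r was lowest for Cd68 at 0.71 and lay between 0.93 and 0.99 for the other 9.

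**Figure D4:**
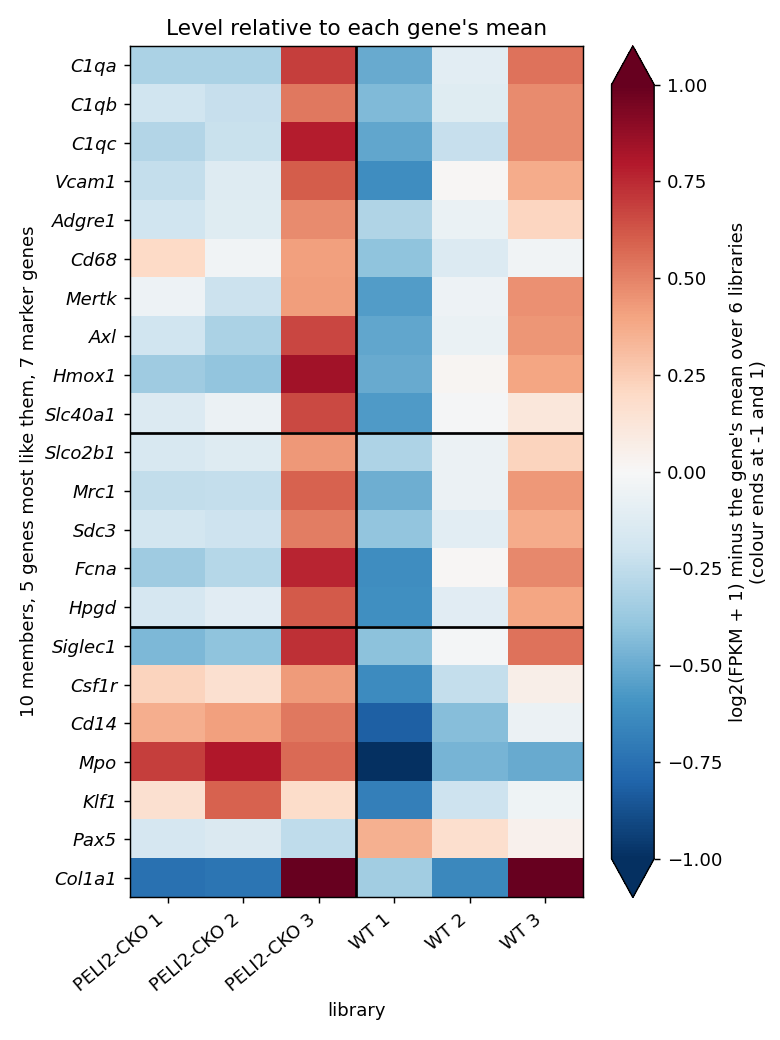
Level of each gene in each library as log2(FPKM + 1) minus the gene's mean over the 6 libraries, for the 10 members, the 5 genes most like them and 7 marker genes, with libraries labelled PELI2-CKO left of WT. The upper blocks are high (red) in replicate 3 of both groups, with 2 exceptions in WT replicate 3. There Cd68 is near its mean and Slc40a1 only slightly above its mean. Cd14 and Mpo are above their mean in all 3 libraries labelled PELI2-CKO and Pax5 in all 3 WT libraries. Col1a1 passes the end of the colour scale in replicate 3 of both groups.

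Of 20 complement genes other than C1q, 10 lay under the filter, 10 were tested and 0 passed (limma). Replicate 3 was highest in both groups for 3 of the 10 tested, and WT replicate 1 was the lowest WT library for 7. At an unadjusted p under 0.05, 4 had higher means and 1 (Cd93) a lower one, against 9.2% and 8.88% of all genes tested. The list's median log2 fold change was 0.27. The proteases that join C1q in the first complement component were at or under 0.728 FPKM for C1ra and 0.0885 FPKM for C1s1. C3, the central component, stood at 52.8, 57.6 and 57.6 FPKM in libraries labelled PELI2-CKO and 29.0, 40.8 and 38.9 FPKM in WT (log2 fold change 0.63, limma adjusted p = 0.142). Itgam, a chain of complement receptor 3, stood at 12.2, 13.1 and 14.6 FPKM in libraries labelled PELI2-CKO and 9.31, 10.9 and 11.2 FPKM in WT. Cd93, once described as a C1q receptor and carried by early B cells, was lower at 29.4, 31.4 and 27.8 FPKM in libraries labelled PELI2-CKO against 46.3, 35.7 and 36.8 FPKM in WT (limma adjusted p = 0.168). C1ra and C1s1 were likewise picked with their values in view.

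Markers of monocytes, granulocytes and erythroid cells shared a low WT replicate 1 with the macrophage genes, while fewer of them were highest in replicate 3. WT replicate 1 was the lowest WT library for 12 of 12 monocyte, 15 of 15 granulocyte and 13 of 14 erythroid genes, as for 10 of 10 members, and for 1 of 12 B-lineage genes. Summed over 12 monocyte genes, the level was 1130 to 1380 FPKM in libraries labelled PELI2-CKO and 755 to 1060 in WT, and the mean of each of the 12 was higher. The 15 granulocyte genes summed to 12300 to 14500 FPKM in libraries labelled PELI2-CKO and 7820 to 10800 in WT. The 14 erythroid genes summed to 14100 to 17900 FPKM in libraries labelled PELI2-CKO and 9260 to 13500 in WT. The 12 B-lineage genes summed to 1660 to 1750 FPKM in libraries labelled PELI2-CKO and 2040 to 2420 in WT. For these 4 lists the summed levels of the groups did not overlap. Gene by gene, limma called no difference in any of the 4, and the smallest adjusted p was 0.0908, among granulocyte genes. Groups lay apart with a higher mean for 8 of 12 monocyte, 11 of 15 granulocyte and 5 of 14 erythroid genes, against 11.5% of all genes tested. They lay apart with a lower mean for 7 of 12 B-lineage genes, against 14.3%. For Hba-a1 and Hbb-bs, the most abundant erythroid genes, the groups overlapped. The sum over the 10 macrophage genes was 178 to 332 FPKM in libraries labelled PELI2-CKO and 147 to 271 in WT, and the groups overlapped. Replicate 3 was highest in both groups for 5 of 12 monocyte, 3 of 15 granulocyte and 1 of 14 erythroid genes, against 10 of 10 members. Whether the macrophage genes differ from these lists in their response to the label was not tested.

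Among stromal and endothelial genes, replicate 3 was highest in both groups for 3 of the 6 tested (Col1a1, Col1a2 and Sparc), and WT replicate 1 was the lowest WT library for 1 of 6. Col1a1, the collagen of bone matrix, stood at 4.37, 4.43 and 20.3 FPKM in libraries labelled PELI2-CKO and 6.09, 4.78 and 20.3 FPKM in WT, and Sparc, a bone matrix protein, at 1.57, 1.33 and 6.66 FPKM in libraries labelled PELI2-CKO and 2.32, 1.94 and 6.83 FPKM in WT. Both stood apart in replicate 3 of each group, and the 3 genes were picked with their values in view. Pecam1, an adhesion molecule listed here as endothelial, was lowest in replicate 3 of each group, and its source cells were not tested. It stood at 27.5, 27.9 and 26.0 FPKM in libraries labelled PELI2-CKO and 32.6, 30.2 and 29.6 FPKM in WT. Cdh5 and Kdr, the other genes listed as endothelial that were tested, were highest in replicate 3 within WT. In the libraries labelled PELI2-CKO both were highest in replicate 1, and Kdr was lowest in replicate 3. Pecam1 alone therefore does not show how endothelial genes behaved in the replicate 3 libraries. Of the 15 stromal and endothelial genes 9 lay under the filter, 0 were at 0 in all libraries, and the sum was 45.2 to 72.3 FPKM in libraries labelled PELI2-CKO and 45.6 to 76.2 in WT. Of the defining stromal markers, Lepr stayed at or under 0.14 FPKM in every library and Cxcl12 at or under 1.76 FPKM. The part of stromal cells in the levels of Vcam1 and Axl, and of sorting or preparation in the replicate 3 libraries, was not tested.

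Of the remaining lists, the 11 plasmacytoid dendritic cell genes summed to 1070 to 1210 FPKM in libraries labelled PELI2-CKO and 1020 to 1130 in WT, the 7 conventional dendritic cell genes to 52.5 to 64.1 FPKM in libraries labelled PELI2-CKO and 38.5 to 44.9 in WT, and the 9 T and NK cell genes to 99.1 to 124 FPKM in libraries labelled PELI2-CKO and 79.4 to 98 in WT. At an unadjusted p under 0.05, 8 of 11, 5 of 5 and 2 of 8 tested genes of these lists were higher, against 9.2% of all genes tested. Of these lists' genes 0 passed over all genes (limma). Replicate 3 was highest in both groups for 0 of the 11 and 0 of the 5 dendritic cell genes and for 5 of the 8 T and NK cell genes.

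**Figure D5:**
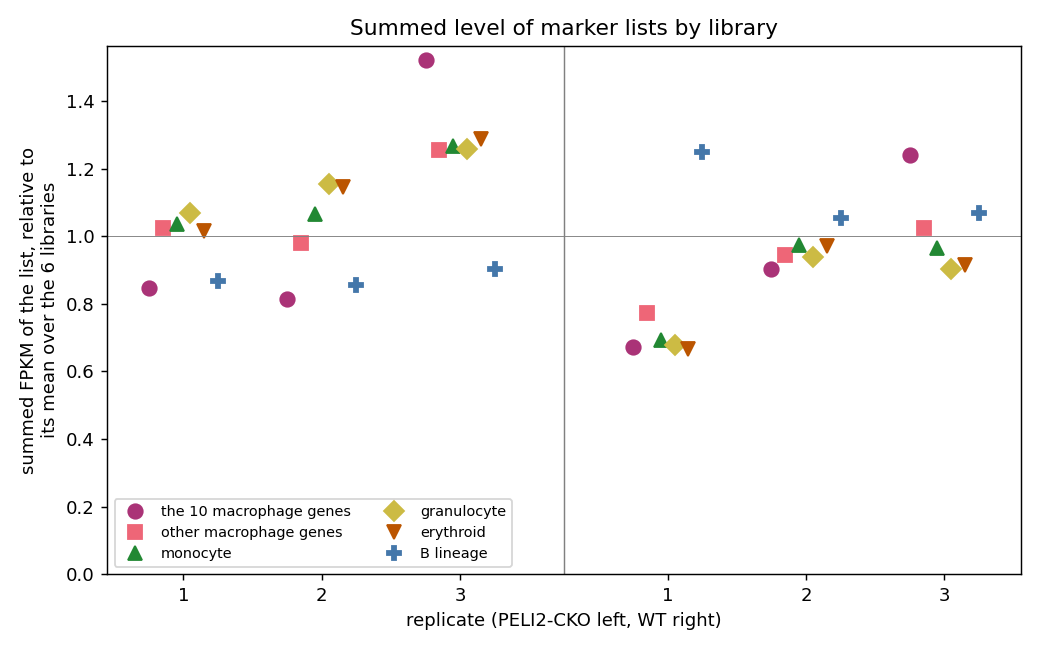
Summed FPKM of each marker list divided by its mean over the 6 libraries, libraries labelled PELI2-CKO left and WT right, with 1 point per list and library. Of the 6 lists plotted, the 10 macrophage genes and the other macrophage genes are highest in replicate 3 of both groups. Granulocyte, monocyte and erythroid sums are higher, and B-lineage sums lower, throughout the libraries labelled PELI2-CKO.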

How the data were processed

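RNA of 6 samples was sequenced as single-end reads of 50 bases on a DNBSEQ instrument after poly(A) selection, per the labels' protocols. Per the submitters' processing notes, which give neither roles nor order, the tools included RSEM 1.2.12, HISAT2 2.0.4, DESeq2 1.4.5 and Bowtie2 2.2.5, on build GRCm38.p6. The values are FPKM per gene and library as deposited by the authors, with no scaling across libraries stated. Strand use is not given in the sources used here, so antisense reads cannot be told apart. Positions are those of the table on GRCm38, where 27725 of 27761 rows have an ID in GENCODE M21.

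The 12953 genes that reached 1 FPKM in 3 or more libraries entered a limma 3.58.1 fit (R 4.3.3) of log2(FPKM + 1), two-sided, using lmFit and trended eBayes, with Benjamini-Hochberg adjustment and no replicate block. The code was tested on simulated data. Depth was taken as the lowest library total that made values under 6 reads of genes with 1 annotated transcript whole within 0.03 reads, which held for 99.2% to 99.4% of values. Such reads cover counting error only. No count model was run on these normalized values.

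The 10 members, the 12 gene lists and the tests were chosen with earlier results of these data known. The rule for named genes always names the members, then up to 4 genes of a list with the smallest p and any defining marker, and the 5 genes most like the members' mean. Lists share 5 genes. Alternatives were other pseudocounts, filters, scalings, variance settings, library weights, the replicate number as a block and each library left out, and leaving out both replicate 3 libraries was added after seeing the data. Promoters are RefSeq's, on GRCm38.p6.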

Additional observations from a re-analysis of the deposited data

How the results depend on the processing

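No member passed an adjusted p under 0.05 in any of the 17 alternatives in which it was tested (limma). Mertk was tested in 16, since it dropped out with a filter of 5 FPKM. The number of genes called over all genes was 3, and became 1 with a filter of 5 FPKM, 6 without a trend, 7 without both replicate 3 libraries and 1 to 13 when 1 library was left out. The members' median of 0.10 became -0.015 with library weights and ran from -0.138 without PELI2-CKO replicate 3 to 0.351 without WT replicate 3. It was 0.096 without both replicate 3 libraries. Rescaling to a common total moved the median of all genes to -0.076 and that of the members to 0.043, with C1qa at -0.032, C1qb at -0.004 and Hmox1 at -0.013. Library weights gave -0.128 for C1qa, -0.061 for C1qb, -0.008 for Vcam1, -0.022 for Mertk, -0.053 for Axl and -0.127 for Hmox1. Without both replicate 3 libraries C1qa was at -0.014 and Hmox1 at -0.132. With 1 library left out the ranges were -0.297 to 0.323 for C1qa, -0.177 to 0.319 for C1qb, -0.166 to 0.465 for C1qc, -0.111 to 0.386 for Vcam1, -0.11 to 0.237 for Adgre1, -0.153 to 0.355 for Mertk, -0.207 to 0.347 for Axl and -0.344 to 0.272 for Hmox1. Cd68 (0.269 to 0.495) and Slc40a1 (0.058 to 0.455) kept their sign. The cause of these changes was not tested.

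With the replicate block 4 genes were called, against 3 without it. The members' median stayed at 0.10, which a block cannot move in this balanced design. The unadjusted limma p was lower with the block for every member. It went from 0.63 to 0.058 for C1qc, from 0.27 to 0.064 for Slc40a1 and from 0.029 to 0.018 for Cd68. The smallest adjusted p of a member with the block was 0.194 (limma). Deviations of samples with the same number were weakly correlated over all genes tested, at 0.10, 0.04 and 0.09. The labels do not say whether the numbers pair the samples, and these values cannot settle it. The deviations of each library correlated best with those of its own number in the other group. By the levels themselves, PELI2-CKO replicates 2 and 3 also correlated best with their own number in WT. PELI2-CKO replicate 1 did not, at 0.9855 with WT replicate 2 and 0.9784 with WT replicate 1. With 3 libraries per group and the large spread of these genes, differences could go undetected, and no detection limit was computed. On log2(FPKM + 1) the 95% intervals reached up to 2.05 times the WT level for C1qc and down to 0.56 times for Hmox1.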
